A study of Drosophila melanogaster with 4 samples.

Results

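Translation initiation factors are the proteins that bring the initiator transfer RNA, the messenger RNA and the ribosomal subunits together at a start codon. Their genes were taken as all listed Drosophila melanogaster genes whose FlyBase symbol begins with eIF and a digit, which gave 44 of 17773 genes. RNA came from ovaries of adult females kept for 20 days at 29 °C. The 2 control libraries came from tj-GAL4, tubulinGal80ts flies and the 2 tumor libraries from flies that also carried UAS-aPKCΔN and UAS-RasV12. Both genotypes therefore share tj-GAL4, a driver expressed in somatic follicle cells, and the temperature-sensitive Gal80 repressor, which is inactive at the warm temperature used. The UAS transgenes of the tumor genotype encode a truncated atypical protein kinase C and an oncogenic form of Ras. Per the labels, pre-vitellogenic follicles were isolated from control ovaries, whereas for tumors no stage is stated. A bacterial protease was used to dissociate tissue of either genotype, which was then filtered to enrich follicle epithelium. The series description speaks of biological replicates. The genotypes thus differ in dissection as well as in transgenes, and these cannot be told apart.

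Initiation starts when the trimeric factor eIF2, bound to GTP, delivers initiator transfer RNA to the small ribosomal subunit. The exchange factor eIF2B reloads eIF2 with GTP, and stress kinases that phosphorylate eIF2alpha block that step. The many-subunit factor eIF3 holds the small subunit ready, while the cap-binding protein eIF4E, the scaffold eIF4G and the helicase eIF4A recruit the messenger RNA. Several fly factors have more than one gene, and some second copies are known from the male germline, eIF4E3 and eIF4G2 among them. In the ovary, translation is used heavily by growing germline cysts and by follicle cells, and cap-dependent initiation is a main point at which growth signals act.

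Libraries held 41248068 to 50971858 estimated counts, so counting error was small for most of these genes and the spread between 2 libraries a group limited precision. Each of the 44 genes was quantified on a target made of the gene's span, introns included, with 2000 bases added on each side. Targets of neighbouring genes overlap as a result. For 32 of the 44 genes no exon base lay outside other targets, and for 23 all exon bases lay inside at least 1 single other target. Reads from such exons can be assigned to either gene. A locus sum, the counts of the gene and of every target that holds one of its exons, was therefore tested beside each gene's own count. A locus sum also contains RNA of the neighbours and does not measure the gene alone.

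Of the 44 genes, 34 passed the filter on low counts and 10 did not. The 10 were eIF1, eIF3d2, eIF3f2, eIF3g2, eIF3h, eIF3i, eIF4E3, eIF4E4, eIF4E6 and eIF5. Among them were eIF1, which acts in start codon choice, and eIF5, which triggers GTP hydrolysis on eIF2. Counts of eIF1, eIF5 and the eIF3 subunit genes eIF3h and eIF3i rounded to 0 in all 4 libraries. Their exons lay fully inside other targets that had counts. For eIF3i, on chromosome 2L from 4966367 to 4967775 on the minus strand, the target of the cytochrome oxidase assembly gene Scox held all exon bases and had 22327 and 26772 counts in the controls against 21591 and 19525 in the tumors. For eIF3h the target of senju held them all, with 23580 and 28261 counts in the controls against 16230 and 15963 in the tumors. The counts of 0 thus do not measure the expression of these genes.

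Initiation factor genes were lower in tumor more often than higher. By edgeR's quasi-likelihood test with a Benjamini-Hochberg adjusted p under 0.05, 17 of the 34 tested genes fell and 2 rose. Among all 9402 genes tested, 44.6% passed in either direction, 21.2% fell and 23.4% rose. The median log2 fold change, tumor over control, was -0.41 for the 34 genes and 0.02 for all genes. In 25 of the 34 both tumor libraries lay below both control libraries in CPM (counts scaled to a common library size, with TMM factors), and in 3 both lay above, against 38.8% and 40.8% of all genes. The summed CPM of the 44 genes was 11326 and 11455 in control and 8377 and 8411 in tumor, with no overlap between groups. Of the 19 calls, 6 remained past the threshold whichever library was left out, those of eIF2alpha, eIF2beta, eIF3b, eIF3g1, eIF4H1 and eIF6, and the other 13 were lost without at least 1 library. Without control 1 there were 8 lower and 0 higher genes, and without control 2 there were 6 and 0, by edgeR, where 15 were lower and 1 or 2 higher at an unadjusted p under 0.05.

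**Figure D1:**
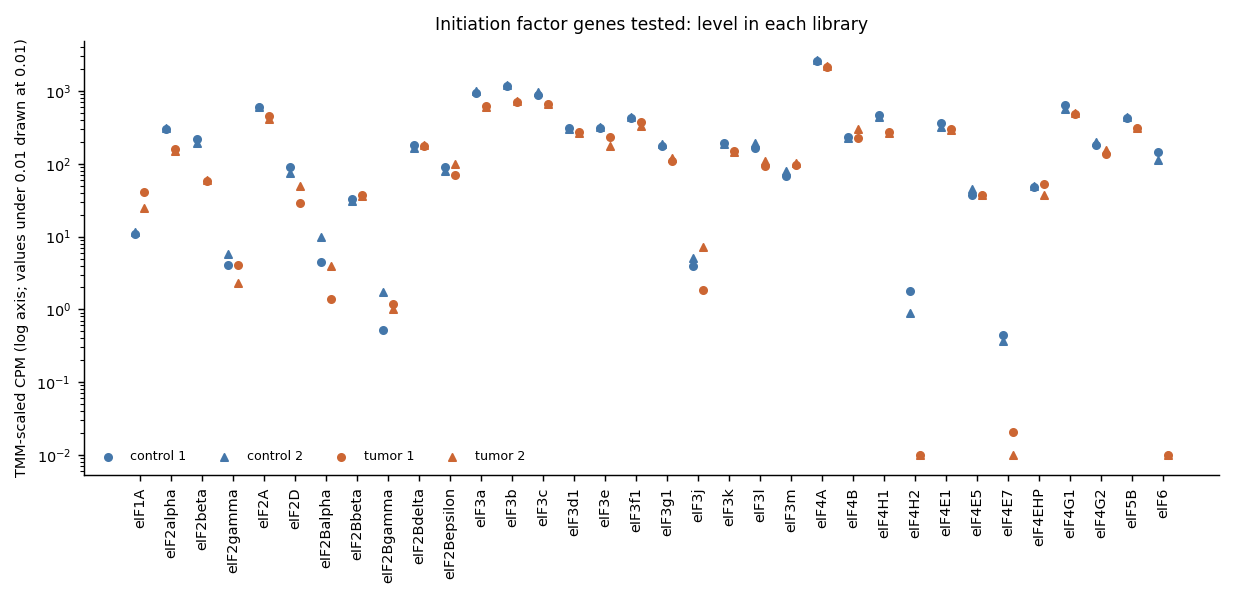
Level of the 34 tested initiation factor genes in each library, in TMM-scaled CPM on a log axis, ordered by factor. Points are single libraries, circles for replicate 1 and triangles for replicate 2, and values under 0.01, listed at 0, are drawn at 0.01. Tumor libraries lay below control for most genes of eIF2 and eIF3, and eIF4H2 and eIF6 dropped to 0.

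Leaving out a library cannot show how reads were divided between overlapping targets. Own counts and locus sums could be set side by side for the 19 called genes. On locus sums, 12 of them passed with the sign of their own count. The 4 genes eIF1A, eIF2D, eIF3m and eIF6 passed with the opposite sign. The remaining eIF2beta, eIF4E7 and eIF5B did not pass on locus sums. Of all 9402 genes tested, 4191 were called on own counts. Of those, 3018 passed on locus sums with the same sign and 317 with the opposite sign. A locus sum includes the gene's own count, so the measures are not independent. Of 41 genes whose locus sum could be tested, 23 fell and 2 rose, against 27.3% falling and 27.7% rising, 55.0% in all, among the locus sums of 14202 genes. The median log2 fold change of the locus sums was -0.28.

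**Figure D2:**
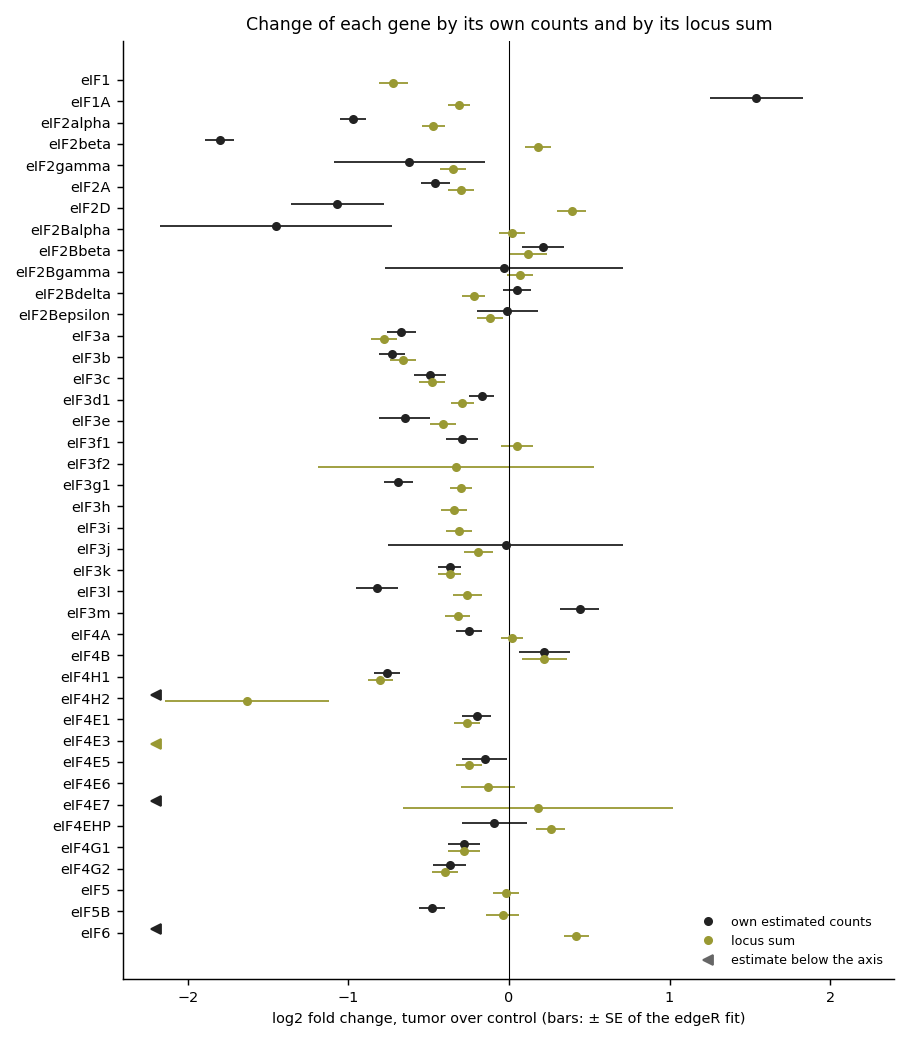
Log2 fold change of each gene, tumor over control, from its own estimated counts (black) and from its locus sum (olive), with the SE of the edgeR fit as bars. Arrowheads at the left edge mark estimates below the axis. The pairs lie close together for eIF3a, eIF3b, eIF3c, eIF3k and eIF4H1. They lie on opposite sides of 0 for eIF1A, eIF2beta, eIF2D, eIF3m and eIF6, among others.

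Of the 3 genes of the eIF2 trimer 2 fell, where 21.2% of all genes fell and 44.6% passed in either direction. The median log2 fold change of the trimer was -0.97. The regulatory subunit gene eIF2alpha (FBgn0261609, chromosome X, 16445176 to 16446993, minus strand), whose product is the substrate of the stress kinases, had 12191 and 15102 counts in the controls against 7738 and 6832 in the tumors. Both tumor libraries lay below both controls, at 160 and 152 CPM against 303 and 309 CPM. Its log2 fold change was -0.97 ± 0.08 (SE from the edgeR fit, 2 libraries each, edgeR adjusted p = 0.0028). Its locus sum, which adds the counts of rngo and CG34015, fell by 0.47 ± 0.07 in log2 units (edgeR adjusted p = 0.0038). The target of rngo held all exon bases of eIF2alpha and had 4156 and 4598 counts in the controls against 6045 and 5538 in the tumors. The share of eIF2alpha in its locus sum went from 74.2% in control to 52.3% in tumor. The part that the division of reads has in the fall of eIF2alpha was not tested. The call on eIF2alpha held whichever library was left out (edgeR adjusted p at most 0.026). It was lost with ribosomal protein genes as the scale, at -0.33 ± 0.10 (edgeR adjusted p = 0.051).

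The gene for the beta subunit, eIF2beta (FBgn0004926, chromosome 3L, 12525093 to 12526731, minus strand), had 8826 and 9498 counts in the controls against 2848 and 2696 in the tumors. That is a log2 difference of -1.80 ± 0.09 (edgeR adjusted p = 0.0016), and the groups did not overlap. Targets of 3 neighbours held exon bases of eIF2beta, and each had more counts in both tumors than in either control. The target of the telomere capping gene ver, which held all of them, had 5660 and 6925 counts in the controls against 10524 and 9115 in the tumors. The target of nst had 4027 and 4815 against 9030 and 9376, and that of the histone acetyltransferase gene Gcn5 2081 and 2833 against 5244 and 4311. The share of eIF2beta in its locus sum went from 41% in control to 10.4% in tumor, and the locus sum itself differed by 0.18 ± 0.08 (edgeR adjusted p = 0.099). The part that the division of reads has in the fall of eIF2beta was not tested.

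The gene for the gamma subunit, eIF2gamma, which binds GTP and the transfer RNA, shares its start and first exons with Su(var)3-9 in flies. It had 165 and 281 counts in the controls against 198 and 104 in the tumors, with a log2 fold change of -0.62 ± 0.47 that did not pass (edgeR adjusted p = 0.34). The target of Su(var)3-9 held 99.1% of its exon bases and had 16044 and 18623 counts in the controls against 15295 and 15508 in the tumors. The low count of eIF2gamma was thus not a measure of its level. Its locus sum fell by 0.35 ± 0.08 (edgeR adjusted p = 0.014).

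The genes eIF2A and eIF2D encode factors that, in mammals, can deliver transfer RNA without the trimer. The first had 24044 and 29395 counts in the controls against 22140 and 18752 in the tumors, so that it fell by 0.46 ± 0.09 in log2 units (edgeR adjusted p = 0.020), and its locus sum fell by 0.30 ± 0.08. Its call was lost without control 1, control 2 or tumor 2, with an adjusted p of up to 0.10. The second had 3591 and 3649 counts against 1408 and 2206, a log2 difference of -1.07 ± 0.29 (edgeR adjusted p = 0.043) that was lost without control 1, control 2 or tumor 1. The locus sum of eIF2D rose by 0.39 ± 0.09. In that locus the target of Pglym78, for a glycolytic mutase, held every exon base of eIF2D and was listed at 0 in both controls and at 5167 and 4195 in tumor. The target of Slbp, which held 90.3% of those bases, went the other way, from 955 and 1198 counts in the controls to 0 in both tumors.

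Of the 5 genes of the exchange factor eIF2B, none passed the test by edgeR, DESeq2 or limma-voom, and 0 had an unadjusted p under 0.05. With ribosomal protein genes as the scale, eIF2Bbeta and eIF2Bdelta passed as higher, whereas the locus sum of eIF2Bdelta passed as lower at -0.22 ± 0.07 (edgeR adjusted p = 0.043). Its catalytic subunit gene eIF2Bepsilon had 3607 and 3944 counts in the controls against 3409 and 4456 in the tumors, and its log2 fold change was -0.01 ± 0.19 (edgeR adjusted p = 0.98). The groups overlapped. For eIF2Bdelta, a regulatory subunit, the counts were 7346 and 8016 against 8431 and 8287, with a log2 difference of 0.05 ± 0.09 (edgeR adjusted p = 0.69). The regulatory subunit gene eIF2Bbeta had 1304 and 1499 against 1810 and 1607, at 0.21 ± 0.13. Counts of eIF2Balpha and eIF2Bgamma were low, at 182 and 487 against 67 and 177 for the first and 21 to 85 for the second. Their SEs of 0.72 and 0.74 leave a wide range. The target of Vps13B held all exon bases of eIF2Balpha and had 3367 and 4125 counts in control against 3421 and 3532 in tumor. That of Vha36-1 held all those of eIF2Bgamma, with 6433 and 6842 counts against 7500 and 6420. The low counts of both genes are thus not measures of their levels. The summed CPM of eIF2B was 310 and 288 in control and 285 and 324 in tumor. That of eIF2 was 527 and 510 in control against 223 and 214 in tumor. These are sums of own counts, and no gene of either factor has exon bases outside other targets. On locus sums the median log2 fold change was -0.35 for eIF2 and 0.02 for eIF2B. The difference between eIF2 and eIF2B was not tested.

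The scaffold factor eIF3 has 16 listed genes, of which 11 were tested, 7 fell and 1 rose, beside 21.2% and 23.4% of all genes. With ribosomal protein genes as the scale, 0 of the 11 were called lower and 3 higher, with a median of 0.16. Under that scale 9.59% of all genes were called lower and 47.1% higher. None of the 7 falls of eIF3 was thus called against ribosomal protein genes. Log2 fold changes ran from -0.82 to 0.44 with a median of -0.49. Of 14 tested locus sums 11 fell, beside 27.3% of all locus sums. The summed CPM of eIF3 was 4645 and 4919 in control and 3332 and 3244 in tumor. The largest subunits had the highest counts, and their own counts and locus sums moved alike. In control, own counts made up 87.6% of the locus sum for eIF3b, 76.2% for eIF3a and 67.3% for eIF3c. Most of each locus sum is thus the own count again. The gene eIF3b (FBgn0034237, chromosome 2R, 17536213 to 17539142, plus strand), whose product is a scaffold of the factor, had 46663 and 58637 counts in the controls against 33784 and 32599 in the tumors. Its log2 fold change was -0.73 ± 0.08 (edgeR adjusted p = 0.0056), and its locus sum fell by 0.66 ± 0.08.

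The gene eIF3a (chromosome 3R, 4429798 to 4433895, minus strand), for the largest core subunit, had 38109 and 49369 counts in the controls against 30383 and 27172 in the tumors. It fell by 0.67 ± 0.09 and its locus sum by 0.78 ± 0.08, and the call was lost without control 2 (edgeR adjusted p = 0.054). The core subunit gene eIF3c fell by 0.49 ± 0.10, from 35562 and 48155 to 32264 and 29878 counts, and its call was lost whichever of the 4 libraries was left out. The gene eIF3k, whose count made up 99.8% of its locus sum in control, had 7852 and 9198 counts against 7295 and 6572, or 195 and 189 CPM against 151 and 146. It fell by 0.37 ± 0.07 on both measures, a call likewise lost whichever library was left out. All exon bases of eIF3k also lie inside the target of Tbp, for a general transcription factor, which was listed at 0 in all 4 libraries, so the count of eIF3k may include reads of Tbp.

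The RNA-binding subunit gene eIF3g1 fell by 0.69 ± 0.09, eIF3e by 0.65 ± 0.16 and eIF3l by 0.82 ± 0.13, with locus sums at -0.30, -0.41 and -0.26, all past the threshold. The call on eIF3e was lost without control 1 or control 2 and that on eIF3l without control 2. For eIF3l, 21.2% of the locus sum in control and 14.2% in tumor was its own, and the target of RhoGAP68F had most of the rest. For eIF3e these shares were 29.7% and 25.3%, with the rest from CG9674 and CG9706. The target of CG9706 held all exon bases of eIF3e. The target of Smyd3 held all exon bases of eIF3g1, whose share of its locus sum went from 47.0% in control to 35.5% in tumor. The gene eIF3d1, whose human counterpart contacts the cap, had 12666 and 14593 counts against 13423 and 12012, a log2 difference of -0.17 ± 0.08 (edgeR adjusted p = 0.15), while its locus sum passed as lower at -0.29 ± 0.07. The gene eIF3f1 was at -0.29 ± 0.10 (edgeR adjusted p = 0.085). The gene eIF3m rose from 2713 and 3878 to 4619 and 4656 counts (0.44 ± 0.12, edgeR adjusted p = 0.041). That call was lost whichever library was left out, and its locus sum, mostly counts of the fucosyltransferase gene O-fut1, fell by 0.32 ± 0.08. The loosely bound subunit gene eIF3j had 161 and 250 counts in the controls against 89 and 322 in the tumors, and the groups overlapped.

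Levels of eIF3 subunit genes, taken per kilobase of exon sequence, differed from gene to gene. In control, eIF3b had 440 CPM per kilobase, eIF3f1 330, eIF3c 282, eIF3a 252, eIF3k 225, eIF3e 209 and eIF3g1 178. Lower values of 153 for eIF3d1, 98.0 for eIF3l, 46.2 for eIF3m and 3.35 for eIF3j came from genes whose exons lie wholly inside other targets, as do those of eIF3b, eIF3e, eIF3f1, eIF3g1 and eIF3k. In tumor eIF3f1 was highest at 271 CPM per kilobase and eIF3b stood next to it at 265. With exons shared between targets, this order was not tested.

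Of the 13 genes of the cap-binding machinery, 10 were tested and 4 fell by edgeR, with a median log2 fold change of -0.26, where 21.2% of all genes fell and 44.6% passed in either direction. Of 12 tested locus sums 6 fell, beside 27.3% of all locus sums. None rose by edgeR, DESeq2 or limma-voom, and 0 were higher at an unadjusted p under 0.05, whereas 3 rose with ribosomal protein scaling. Without control 1 or without control 2, 1 was called lower. Per kilobase of exon, the helicase gene eIF4A had the highest level among the 34 tested genes, at 1055 CPM per kilobase in control and 887 in tumor. Its counts were 104174 and 128955 in control and 105087 and 100172 in tumor, and its log2 fold change of -0.25 ± 0.08 did not pass (edgeR adjusted p = 0.073). Both tumor libraries, at 2175 and 2225 CPM, lay below both controls, at 2590 and 2643. The locus sum of eIF4A was at 0.02 ± 0.07 (edgeR adjusted p = 0.84). Its own share of that sum went from 72.2% in control to 59.9% in tumor, and the part that the division of reads has was not tested.

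The scaffold gene eIF4G1 (FBgn0023213, chromosome 4, 915297 to 930715, minus strand) is the 1 member of which all exon bases lay outside other targets, so its count was least exposed to neighbours. It had 25955 and 27567 counts in the controls against 23724 and 22813 in the tumors, or 645 and 565 CPM against 491 and 507. Its log2 fold change was -0.28 ± 0.10 (edgeR adjusted p = 0.091). Its paralog eIF4G2 fell from 7328 and 9631 to 6688 and 7026 counts (-0.37 ± 0.10, edgeR adjusted p = 0.043), a call lost whichever library was left out, and its locus sum fell by 0.40 ± 0.08. The paralogs thus differed by less than the SE of either, and the difference itself was not tested. Per kilobase of exon eIF4G1 stood at 92.2 CPM in control and eIF4G2 at 20.9 CPM. All exon bases of eIF4G2 lay inside the target of CG33111 and also inside that of CG34355. Its counts, unlike those of eIF4G1, are thus exposed to the division of reads, which limits the comparison of the paralogs.

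Of the 3 helicase cofactor genes 2 fell, where 21.2% of all genes fell and 44.6% passed in either direction. The gene eIF4H1 (FBgn0262734, chromosome X, 16448665 to 16454972, plus strand), whose RNA-binding product stimulates eIF4A, lies beside eIF2alpha and had 18740 and 21875 counts in the controls against 13162 and 11983 in the tumors. It fell by 0.76 ± 0.08 (edgeR adjusted p = 0.0047), its locus sum by 0.80 ± 0.08, and the call held whichever library was left out (edgeR adjusted p at most 0.039). That locus sum also holds the counts of eIF2alpha, so the sums of eIF2alpha and eIF4H1 are not separate measures. The other cofactor gene eIF4B, with 96.8% of its exon bases outside other targets, had 9450 and 11008 counts against 11064 and 13778, at 0.22 ± 0.16 (edgeR adjusted p = 0.33), and its groups overlapped. The second eIF4H gene, eIF4H2, had 71 and 43 counts in control and none in tumor. Against a floor of 3 counts in each tumor library it was at least 20.6-fold lower. Its call was lost without control 1 or control 2.

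In the eIF4E family the canonical gene had the most counts. The gene eIF4E1 had 14520 and 15710 counts in the controls against 14492 and 13171 in the tumors, with a log2 fold change of -0.20 ± 0.09 that did not pass (edgeR adjusted p = 0.15). Its locus sum passed as lower, at -0.26 ± 0.08 (edgeR adjusted p = 0.035). Its groups did not overlap, at 361 and 322 CPM against 300 and 293. The gene eIF4E5 was next, with 1519 and 2171 counts against 1799 and 1656 and a log2 fold change of -0.15 ± 0.14, but all its exon bases lay inside the targets of pbl and CG32365. Its locus sum passed as lower, at -0.25 ± 0.08 (edgeR adjusted p = 0.041). The gene eIF4EHP, whose product binds caps without eIF4G and represses translation, had 1934 and 2394 counts against 2579 and 1695, and its groups overlapped.

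Own counts of the remaining paralogs were at or near 0. The genes eIF4E4 and eIF4E6 were listed at 0. All exon bases of eIF4E6 lay inside the target of CG1951, which had 1047 and 1136 counts in the controls and 1070 and 1024 in the tumors, so its 0 does not measure its expression. Of the others, eIF4E3 had 9 counts in control 1 and none elsewhere, and eIF4E7 had 18 and 18 counts in the controls against 1 and 0 in the tumors. The summed counts of eIF4E7 gave a ratio of tumor to control of 0.0265 with an exact 95% counting interval of 0.000653 to 0.157, which covers counting error only. Its call was lost whichever library was left out. The second copies of eIF3 subunits, eIF3d2, eIF3f2 and eIF3g2, had between 0 and 9 counts in each library. By own counts, the gene with the most counts in the eIF3d, eIF3f, eIF3g, eIF4E and eIF4H families was the same in both genotypes.

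The remaining factors act around start codon choice and subunit joining. The gene eIF5B (chromosome 3L, 3428658 to 3460977, minus strand), for the GTPase that joins the subunits, fell from 17355 and 21503 to 15047 and 14037 counts (-0.48 ± 0.08, edgeR adjusted p = 0.011). It has 65.8% of its exon bases outside other targets. Its locus sum, which includes the piRNA factor gene armi with 23663 and 31761 counts against 37881 and 29061, was at -0.04 ± 0.10, and its call was lost without control 1 or control 2. The gene eIF1A, for a scanning factor, rose from 440 and 567 to 1967 and 1128 counts (1.54 ± 0.29, edgeR adjusted p = 0.017), while the target of CG8064, which holds 76.3% of its exon bases, had 4213 and 3647 counts against 0 and 430. The locus sum of eIF1A fell by 0.31 ± 0.07, and the call on its own count was lost without control 1 or control 2. For eIF1 and eIF5, listed at 0, the locus sums fell by 0.72 ± 0.09 and differed by -0.02 ± 0.08. The first of these consists largely of counts of a small nucleolar RNA target and of RpL28.

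The largest log2 fold change among the 34 tested genes was that of eIF6 (FBgn0034915, chromosome 2R, 23849246 to 23850301, minus strand), whose product keeps the ribosomal subunits apart and acts in making the large subunit. It had 5966 and 5516 counts in control and none in either tumor library, at least 2030-fold lower against a floor of 3 counts in each tumor library (edgeR adjusted p = 0.0016). Its single exonic stretch lies wholly inside the target of ytr, a gene on the same strand. The ytr target had 11319 and 14310 counts in the controls against 26134 and 26117 in the tumors. The sum over the locus was 17285 and 19826 in control and 26134 and 26117 in tumor, a rise of 0.42 ± 0.08 (edgeR adjusted p = 0.0092). The 0 in tumor came with a higher count on the target that holds the same exon, so it does not show that eIF6 RNA was missing.

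**Figure D3:**
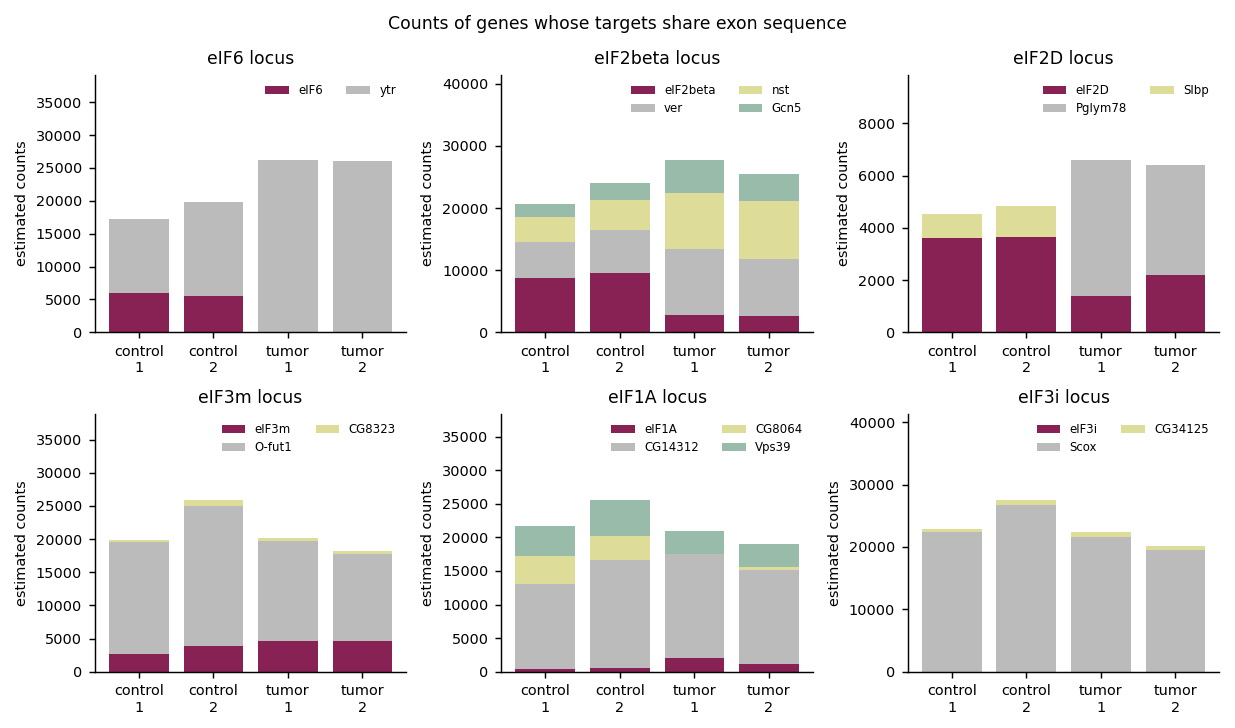
Estimated counts (vertical axes) of 6 initiation factor genes (dark red) and of the neighbours whose targets hold their exons, stacked for each of the 4 libraries. The dark red part vanished in tumor at eIF6 and shrank at eIF2beta and eIF2D. Neighbouring counts grew at eIF6 and eIF2beta, whereas at eIF2D Pglym78 grew and Slbp dropped to 0. The count of eIF3i was 0 throughout beside a large Scox count.

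The direction for the group depended on what the libraries were scaled to. Cytoplasmic ribosomal protein genes had a median log2 fold change of -0.64, with 33 of 55 tested genes lower and 4 higher (10 lower without control 1 and 13 without control 2), and their summed CPM was 87876 and 87374 in control against 58270 and 53757 in tumor. Among all genes 21.2% were lower and 23.4% higher in that comparison. With ribosomal protein genes as the scale, the median of all genes became 0.67 and that of the 34 initiation factor genes 0.23. Under that scaling 9 of the 34 were called higher and 4 lower, against 47.1% and 9.59% of all genes, of which 56.7% passed in either direction. Against ribosomal protein genes, eIF3a was at -0.02 ± 0.11, eIF3b at -0.08 and eIF4H1 at -0.12, none past the threshold. The genes eIF4A, eIF4E1 and eIF3d1 were then higher, at 0.40, 0.44 and 0.47 (edgeR adjusted p = 0.030, 0.034 and 0.021). The 4 lower calls were those of eIF2beta, at -1.15 (edgeR adjusted p = 0.0033), eIF4E7, eIF4H2 and eIF6. Counts of eIF4E7 and eIF4H2 were low in every library. With factors from all genes, the locus sums of eIF2beta and eIF6 stood at 0.18 and 0.42.

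**Figure D4:**
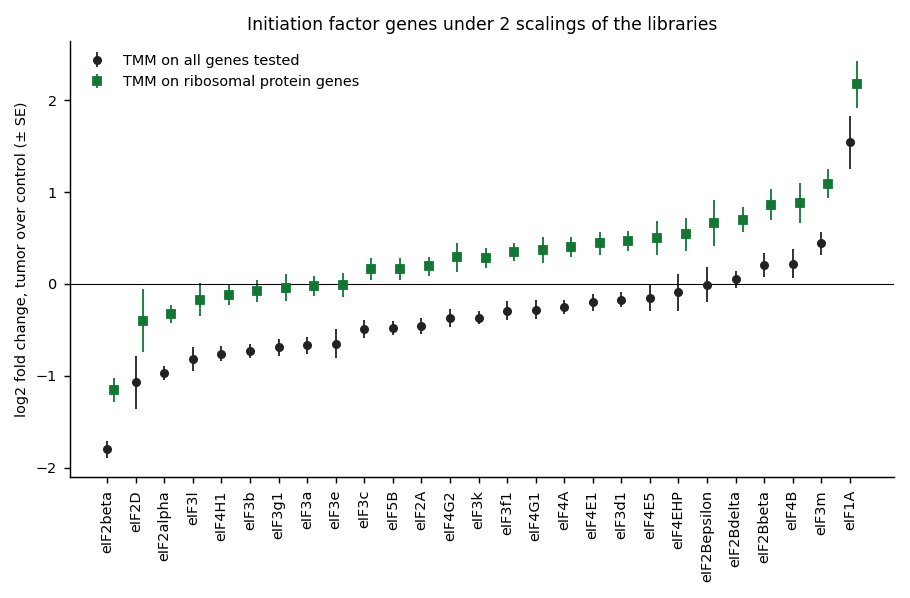
Log2 fold change with the SE of the edgeR fit for the 27 tested genes with at least 10 CPM in control, leaving out eIF6, under TMM factors from all genes tested (black circles) and from ribosomal protein genes (green squares). The second set lies about 0.65 higher throughout, which moves eIF3a, eIF3b and eIF4H1 onto 0.

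Genes that regulate initiation or act after it were followed through lists. In the integrated stress response, in which kinases phosphorylate eIF2alpha, all 7 tested genes of 8 listed rose, with a median log2 fold change of 1.31, beside 23.4% of all genes, and 4 rose when control 1 was left out. Of the 8 locus sums 6 rose and 1 fell, with a median of 0.51, beside 27.7% and 27.3% of all locus sums. The transcription factor gene Xrp1 rose from 6652 and 11052 to 44860 and 40133 counts (2.22 ± 0.18, edgeR adjusted p = 0.0030), and its locus sum by 2.14. The pseudokinase gene trbl rose by 1.66 ± 0.07 and Irbp18, for the partner of Xrp1, by 1.72 ± 0.18. The locus sum of trbl rose by 1.45 ± 0.08 and that of Irbp18, which has no exon base outside other targets, by 0.72 ± 0.11. The kinase gene Gcn2 rose from 3101 and 3869 to 5617 and 5385 counts (0.59 ± 0.07, edgeR adjusted p = 0.0061), a call lost without control 1. The second kinase gene PEK was at 0.56 ± 0.15 and crc, for the transcription factor translated when eIF2alpha is phosphorylated, at 0.40 ± 0.09. Both of those calls were lost without control 1, control 2 or tumor 2, and the locus sums were -0.66 for PEK, past the threshold in the other direction, and -0.02 for crc. RNA levels do not show phosphorylation of eIF2alpha.

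Thor, for the repressor that binds eIF4E and blocks eIF4G, rose from 4101 and 7253 to 15930 and 13097 counts (1.31 ± 0.21, edgeR adjusted p = 0.012), with a locus sum at 1.61. Its call was lost without tumor 1. The log2 fold change of eIF4E1, its binding partner, was -0.20. Of the 11 tested genes among 12 regulators of cap and poly(A) use, 3 rose and 5 fell, beside 23.4% and 21.2% of all genes, and without control 1 these were 1 and 3. The translational repressor genes tral and me31B, both abundant in germline granules, fell by 1.12 ± 0.13 and 2.43 ± 0.34, and their locus sums by 0.60 ± 0.11 and 0.61 ± 0.10. The share of me31B in its locus sum went from 28.7% in control to 8.32% in tumor. The poly(A)-binding protein gene pAbp fell by 0.83 ± 0.07 and its locus sum, of which 3.74% in control was its own, by 0.61 ± 0.08. The eIF4G relative NAT1 fell from 36512 and 41053 to 26536 and 23879 counts (-0.70 ± 0.09, edgeR adjusted p = 0.0071), a call lost without control 1.

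Among 14 tested genes of TOR and growth control 2 rose and 4 fell, with a median of -0.12. These 6 calls are about the share of all genes that passed in either direction, 44.6%. Without control 1, 0 were called higher and 1 lower. The growth kinase gene S6k rose by 0.54 ± 0.08 and the insulin receptor gene InR by 0.78 ± 0.15. The growth regulator gene Myc fell by 0.70 ± 0.17, from 42587 and 65054 to 38867 and 29988 counts, and rictor, of the second TOR complex, by 0.88 ± 0.09. The calls on S6k, InR and Myc were each lost without at least control 1, and Myc was at -0.06 with ribosomal protein scaling. Of 14 elongation and termination genes 8 fell and 1 rose, with a median of -0.53, beside 21.2% and 23.4% of all genes. With ribosomal protein scaling 1 was lower and 3 higher, with a median of 0.11. They included the elongation factor genes eEF1alpha1, at -0.69 ± 0.09, and eEF1beta, at -0.91 ± 0.12, and the ribosome recycling gene pix, at -1.08 ± 0.08. The gene that rose, eEF1gamma at 0.57 ± 0.13, named after its values were seen, had a locus sum that fell by 0.72. Without control 1 only pix of the 8 still passed as lower, and without control 2 there were 4.

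RNA of markers of other cell types differed between the groups along with these values. Of 11 tested germline markers 9 fell, beside 21.2% of all genes, among them otu, from 1524 and 1574 to 7 and 14 counts, and osk, the one marker at 0 in both tumor libraries. Their median log2 fold change was -3.38 on own counts and -0.87 on locus sums, of which 8 fell, beside 27.3% of all locus sums. The locus sum of osk fell by 1.96 ± 0.09, with 8223 and 7039 counts in tumor, and that of grk, called lower on its own count at -0.69, was at 0.03 ± 0.10. The summed CPM of the germline list was 1381 and 1429 in control against 794 and 727 in tumor. Most of what remained was piwi, a gene that follicle cells also express, at 525 CPM in tumor. Of 7 blood cell markers 5 rose, beside 23.4% of all genes, with a summed CPM of 13.3 and 5.80 in control and 151 and 153 in tumor. Of 5 tested muscle sheath markers 2 fell, where 21.2% of all genes fell and 44.6% passed in either direction. Their summed CPM was 137 and 253 in control against 84.7 and 45.4 in tumor. The fat body sum was 13.7 to 20.2 CPM in all libraries. Follicle cell markers were present in both groups, with 3 of 7 higher and 2 lower on own counts and on locus sums. Among all genes 23.4% were higher and 21.2% lower on own counts, and 27.7% and 27.3% on locus sums. The marker peb was among the lower ones, at -5.88 ± 0.17. In bulk RNA, fewer cells of a type and less RNA per cell cannot be told apart, and the part of cell types in the differences of the initiation factor genes was not tested.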

How the data were processed

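The 4 libraries of ovarian RNA were grouped by their titles. The submitters' processing notes name kallisto, and its version and strand setting were not given in what was used here. For each target the authors deposited an estimated count and a TPM value, per the file headers. The deposited TPM divides by target length, introns included, so it served only as an alternative scale, and levels between genes were taken per kilobase of exon (chosen after seeing the data). Of 17773 identifiers 17668 matched a symbol, and for 17551 of them (99.3%) the target length equals the BDGP6.54 gene span plus 4000 bases. Coordinates come from that annotation.

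After rounding, estimated counts entered edgeR 4.0.16 (R 4.3.3: filterByExpr, TMM, quasi-likelihood test on group, two-sided, Benjamini-Hochberg over 9402 genes, threshold 0.05), with 2 residual degrees of freedom. Locus sums used the same library factors. DESeq2 1.42.0, limma 3.58.1, other scalings and filters, a replicate block and leaving out each library were alternatives. The fit was tested on simulated data. Floors and intervals cover counting error only. Replicate numbers did not pair the samples (the check is among the processing results).

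Members, lists and tests were chosen with earlier results of these data known. By rule all members are named, with counts per library for eIF2, paralogs and up to 2 called genes at each end of a factor, and up to 4 called genes of each other list plus Thor, S6k, Myc, PEK, Gcn2, crc and NAT1. Counts of further members were added after their values were seen. Promoter motifs and 2 listed symbols with no match were not analysed here.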

Additional observations from a re-analysis of the deposited data

How the results depend on the processing

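Of 34 initiation factor genes, 17 were lower and 2 higher, with a median log2 fold change of -0.41. Upper-quartile factors gave 22 lower, 1 higher and a median of -0.52, library totals 15, 2 and -0.31, and no filter 15 and 1. Scaling on ribosomal protein genes gave 4 lower, 9 higher and a median of 0.23, and 902 lower and 4425 higher among all genes. Locus sums gave 23 lower, 2 higher and a median of -0.28, and 3874 lower and 3939 higher among all 14202. On log2(TPM + 1) limma-trend gave 11 lower and a median of -0.17 (9, -0.12 and 1314 lower among all genes with no filter), with a pseudocount of 0.1 it gave 11 and -0.17, and with 5 it gave 10 and -0.12. An adjusted p under 0.01 left 7 lower and 0 higher (851 and 992 of all genes), and a log2 fold change of at least 1 left 5 and 1 (1141 lower of all genes). With the replicate block 9 were lower, and 1305 of all genes, where 17 and 1989 were without it. Deviations of same-numbered libraries from their group means correlated at r = -0.0137 across genes, and the labels state no shared batch, so the 8 calls lost under the block are not read as weaker effects. Leaving out 1 library gave 6 to 12 lower and 0 to 1 higher, with medians of -0.49 to -0.39, and 760 to 1507 lower and 1095 to 1495 higher among all genes. The lowest of these came without a control library (8 lower without control 1, 6 without control 2). The median of the members stood 0.43 below that of all genes in the main comparison, a gap that library factors cannot change, 0.28 below on locus sums and 0.42 to 0.19 below on TPM.

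Among genes called with either scaling, ribosomal protein scaling reversed the direction for eIF2A (0.19), eIF3c (0.16), eIF3d1 (0.47), eIF3f1 (0.35), eIF3k (0.28), eIF4A (0.40), eIF4E1 (0.44), eIF4G2 (0.29) and eIF5B (0.16), as it adds about the same amount to every gene. Uncalled with either, eIF4G1 (0.37), eIF4E5 (0.50), eIF4EHP (0.54), eIF2Bepsilon (0.66), eIF2Bgamma (0.61) and eIF3j (0.68) also turned from below to above 0. Among genes called on own counts or locus sums, the latter reversed the direction for eIF1A (-0.31), eIF2Bdelta (-0.22), eIF2D (0.39) and eIF2beta (0.18). The same held for eIF3m (-0.32), eIF4E7 (0.18) and eIF6 (0.42). Uncalled on both measures, eIF2Balpha (0.02), eIF2Bgamma (0.07), eIF3f1 (0.05), eIF4A (0.02) and eIF4EHP (0.26) also turned from below to above 0. The cause of these reversals was not tested. DESeq2's test and limma-voom lost none of the 19 calls. For genes with all exon bases inside other targets, the counts cannot show the size of a change at any depth.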
